A study of Mus musculus with 26 samples.

Results

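This account follows 34 genes of cholesterol and fatty acid synthesis in mouse lung after instillation of multiwalled carbon nanotubes. The genes were given as a list by name: 18 enzymes of sterol synthesis (7 of the mevalonate pathway, 11 from squalene to cholesterol), 4 regulators and transport proteins, and 12 enzymes of fatty acid synthesis, desaturation and elongation. All 34 were found, by 49 probes, among 14838 named genes and 22950 features measured in all. The probe by which each gene is read, the brightest where there were several, was well above background in all 25 animals, and 21 genes had 1 probe.

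The lungs came from MutaMouse mice, a transgenic strain made for measuring mutations in tissue, about 12 weeks old per the labels. The 25 animals formed 5 groups of 5. The NM-401 low and NM-401 high groups received NM-401, and the Mitsui low and Mitsui high groups received Mitsui XNRi-7, both long, rigid multiwalled nanotubes, at 42.7 or 128 µg per mouse. Nanotubes suspended in mouse serum went into the trachea in 4 weekly instillations, and the lungs were collected 56 days after the final one. Whether a dose means each instillation or their sum is not stated. The study design calls the controls vehicle controls and the treatment text says they were given olive oil by gavage, and the sample labels say female where the design says male, so how the controls were handled is not settled. Every group shares the strain, the tissue and the reference RNA, and RNA came from random sections of the lung. On each array the animal's RNA (Cy5) was set against a universal mouse reference RNA (Cy3), so a level below is a log2 ratio to that reference, and it can be compared between animals but not between genes. Values are given animal by animal in the order of the animal numbers, which carry no order of their own.

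Cells make cholesterol by turning acetyl units into mevalonate, then into isoprenoid units, squalene, lanosterol and at last cholesterol. The enzymes are switched on together by the transcription factor SREBP2, encoded by Srebf2, which the Insig proteins hold back in the endoplasmic reticulum when sterols are plentiful. Its relative SREBP1, from Srebf1, drives fatty acid synthesis, in which ATP citrate lyase supplies acetyl-CoA, Acaca makes malonyl-CoA and Fasn builds palmitate. Stearoyl-CoA desaturases and the Elovl and Fads enzymes then desaturate and lengthen the chains. In lung, alveolar type 2 cells use these pathways to make surfactant, and alveolar macrophages take up and break it down.

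The promoters of several of these genes are shown because the enzymes are regulated together. RefSeq promoters (GRCm38.p6) were at hand for 27 of the 34 genes, and Fdps, Fads1, Sqle, Fdft1, Scd2, Scd1 and Stard4 had none in the table. Printed are bases -150 to -1 before the first listed start of the 4 genes called higher in all 4 exposures that had an entry (Mvd, Cyp51, Tm7sf2, Elovl1). Elovl5, which was lower in all 4, is shown too, as is Hmgcs1, called in 2. Of the 27, Hmgcs1 alone held the sterol regulatory element core described next. Capitals mark the CCAAT box (CCAAT, or ATTGG where it lies on the other strand), the E-box CACGTG and the sterol regulatory element core TCACNCCAC, each searched on both strands.
Hmgcs1, chr13:119690201-119690350, plus strand: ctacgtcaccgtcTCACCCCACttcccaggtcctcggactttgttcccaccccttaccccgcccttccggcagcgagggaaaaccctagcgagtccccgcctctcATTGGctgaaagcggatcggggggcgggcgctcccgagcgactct
Mvd, chr8:122443423-122443572, minus strand: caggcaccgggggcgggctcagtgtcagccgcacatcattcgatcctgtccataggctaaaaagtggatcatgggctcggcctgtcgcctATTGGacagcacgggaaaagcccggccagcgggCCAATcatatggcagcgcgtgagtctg
Cyp51, chr5:4104698-4104847, minus strand: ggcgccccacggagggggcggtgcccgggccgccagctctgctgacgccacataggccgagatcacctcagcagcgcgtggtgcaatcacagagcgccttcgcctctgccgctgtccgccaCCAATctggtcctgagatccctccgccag
Tm7sf2, chr19:6067851-6068000, minus strand: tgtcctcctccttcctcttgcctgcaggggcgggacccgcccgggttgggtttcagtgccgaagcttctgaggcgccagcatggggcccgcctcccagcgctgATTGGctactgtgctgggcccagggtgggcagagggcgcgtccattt
Elovl1, chr4:118427943-118428092, plus strand: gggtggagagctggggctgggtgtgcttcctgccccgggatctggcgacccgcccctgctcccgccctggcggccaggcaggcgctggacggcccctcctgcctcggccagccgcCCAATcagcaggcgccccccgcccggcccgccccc
Elovl5, chr9:77917215-77917364, plus strand: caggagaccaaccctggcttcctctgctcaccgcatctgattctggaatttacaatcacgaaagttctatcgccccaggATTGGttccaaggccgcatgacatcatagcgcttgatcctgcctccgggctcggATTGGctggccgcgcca

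Over the 250 bases before the start, CCAAT was present in 22 of the 27 genes (81.5%), against 33.9% of all 32851 promoters in the table and 37.5% of its genes. It stood at -45 in Hmgcs1, at -60 and -27 in Mvd, at -29 in Cyp51, at -47 in Tm7sf2 and at -35 in Elovl1. Elovl5, which moved the other way, held it also, at -71 and -17. Dhcr7, higher in 3 exposures and not printed, held none of the motifs in bases -150 to -1 before its first listed start. The sterol regulatory element core was found in Hmgcs1, at -137, and in no other of the 27 (3.7%). It was present in 1.05% of all promoters and 1.225% of genes. CACGTG was found in Hsd17b7, Sc5d, Dhcr7, Insig1 and Elovl5, 5 of the 27 (18.5%), against 6.02% of all promoters and 6.86% of genes. A match of letters is a description and not a binding site.

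Against control, sterol enzymes were called higher in every exposure group and none was called lower. By limma with Benjamini-Hochberg adjustment over all 22950 features and a threshold of 0.05, 5 of the 18 sterol enzymes rose at the low and 11 at the high dose of NM-401, and 12 at the low and 11 at the high dose of Mitsui. Their median log2 changes were 0.22, 0.41, 0.64 and 0.46, where the median of all features was 0.00 in each. Fatty acid genes split: of 12, 1, 4, 2 and 2 rose and 2, 3, 1 and 1 fell, in the same order. Called in either direction were 25%, 58.3%, 25% and 25% of them, in both Mitsui groups near the shares of all features given next. Desaturase Scd1 and elongase Elovl1 rose, while Elovl5 fell. Of all 34 genes, 6 rose and 3 fell in NM-401 low (9 of 34, beside 16.9% of all features called in either direction, 8.95% higher and 8% lower). In NM-401 high 16 rose and 4 fell, beside 34.8% of all features (18.4% higher, 16.4% lower). In Mitsui low 16 rose and 1 fell, beside 21% (10.6% higher, 10.4% lower), and in Mitsui high 13 rose and 1 fell, beside 23.7% (12.7% higher, 11% lower). Across the 4 exposures 19 of the 34 genes rose in at least 1, 4 fell in at least 1, and 11 were called in none. The share of all features called in at least 1 exposure was not computed, so these pooled counts cannot be set against it. The 4 comparisons share the same 5 controls, so they are not independent of each other. Exposed and control animals did not overlap for 4, 11, 12 and 7 of the 34 genes, in the same order of exposures. Over all features this held for 11.6%, 22.5%, 16% and 14.6%, and in NM-401 low the count is near that share. Separation from the controls, given by gene below, is to be read beside these shares.

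**Figure D1:**
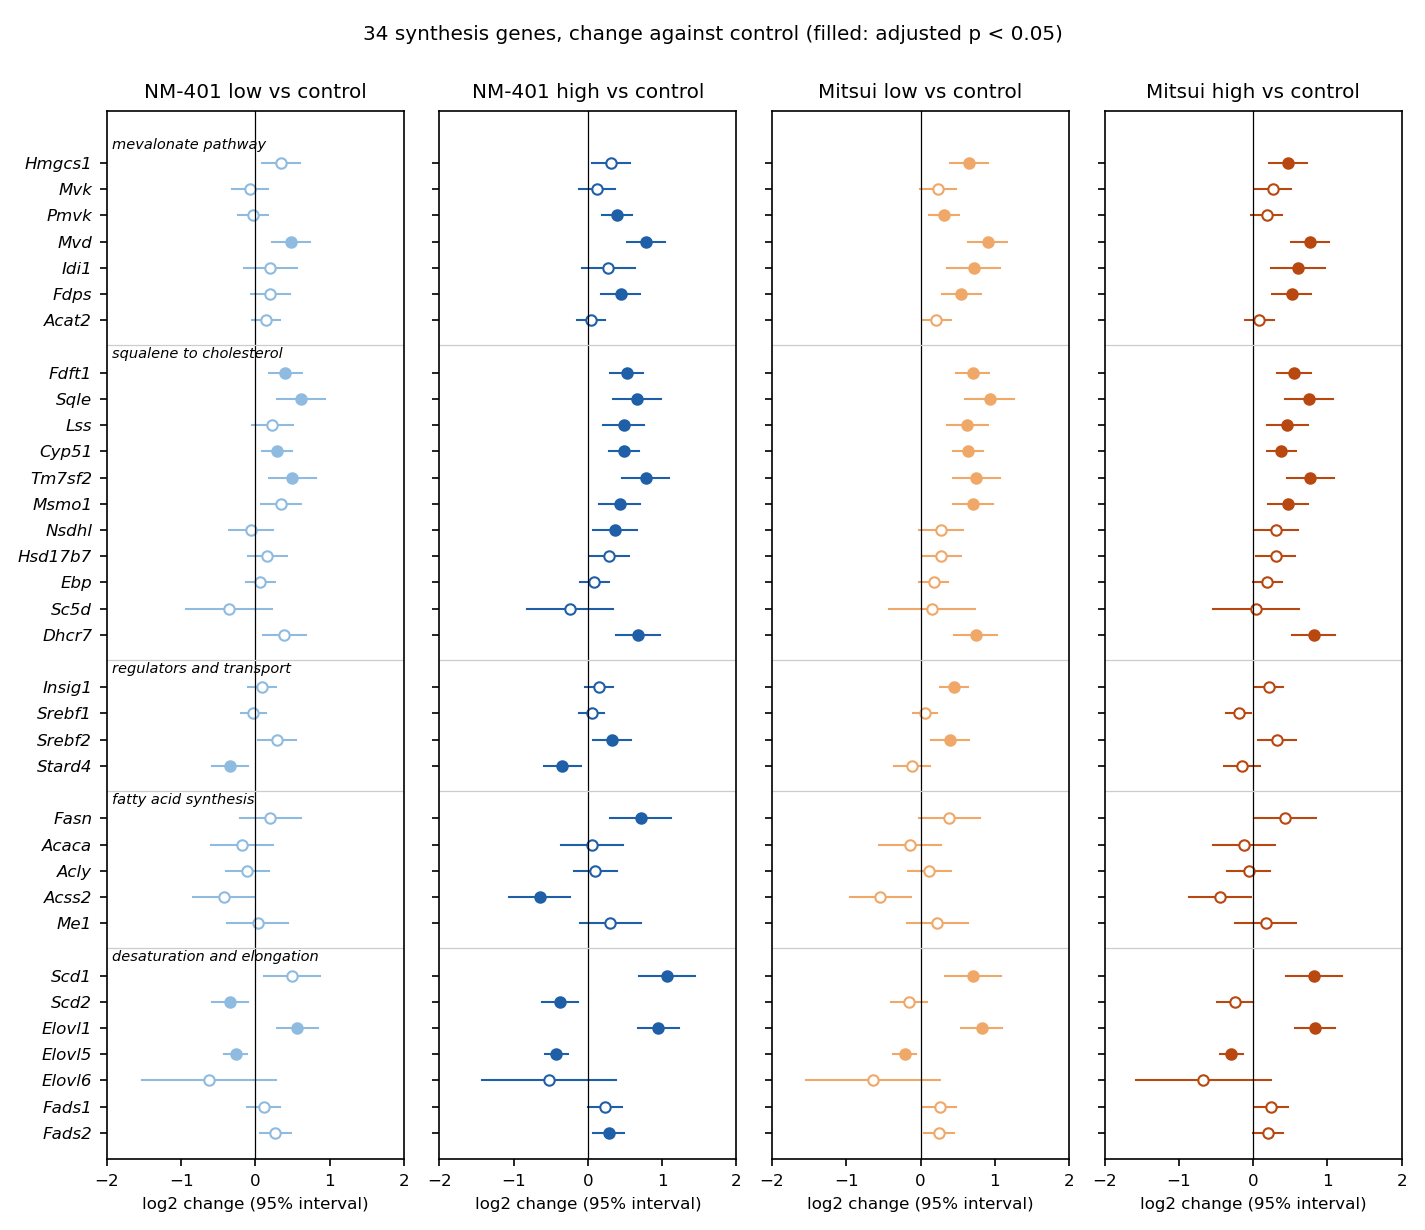
Log2 change against control of the 34 genes (points) with 95% intervals (lines), grouped by role, 1 panel per exposure group, 5 animals against 5; filled points passed the adjusted threshold of 0.05. Among sterol enzymes the filled points all lie to the right of 0, whereas in desaturation and elongation those of Scd1, Elovl1 and Fads2 lie right and those of Elovl5 and Scd2 left.

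These calls depend on the within-array normalisation. When loess was replaced by median centring, 0, 2, 0 and 0 of the 34 genes were called in the order above. Calls over all 22950 features fell as well, from 3890, 7976, 4809 and 5447 to 62, 1064, 74 and 121. The all-feature median shifted to -0.11, 0.17, -0.14 and -0.13. The median change of the 18 sterol enzymes kept its sign, at 0.10, 0.65, 0.40 and 0.23. In bulk tissue a change in RNA per cell and a change in the number of cells of a type cannot be told apart.

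In the mevalonate pathway, 1, 3, 5 and 4 of the 7 enzymes rose, in the same order of exposures, where 8.95%, 18.4%, 10.6% and 12.7% of all features were called higher. The NM-401 counts, 14.3% and 42.9% of the 7, are near the 16.9% and 34.8% of all features called in either direction. Mvd, which decarboxylates mevalonate diphosphate, rose in all 4. Mvd read -1.36, -1.58, -1.14, -1.39 and -1.08 in the 5 controls, -0.84, -0.50, -0.95, -0.92 and -0.93 in the NM-401 low group and -0.28, -0.30, -0.77, -0.70 and -0.60 in the NM-401 high group. Mitsui low animals read -0.55, -0.54, -0.40, -0.50 and -0.05 and Mitsui high animals -0.52, -0.69, -0.73, -0.59 and -0.21. Every exposed animal lay above the highest control. The log2 changes against control were 0.48, 0.78, 0.90 and 0.76 (SE 0.13 each, n = 5 per group), or 1.40-fold (95% interval 1.17 to 1.67) at the smallest and 1.87-fold (1.56 to 2.24) at the largest, with limma adjusted p = 0.00978, 3.22e-05, 2.03e-05 and 0.000115.

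Hmgcs1, which makes hydroxymethylglutaryl-CoA and whose promoter held the sterol element core above, read 0.68, 0.51, 0.44, 0.64 and 0.84 in the controls, 1.23, 1.20, 1.28, 1.20 and 1.46 in Mitsui low and 1.20, 1.10, 0.65, 1.18 and 1.32 in Mitsui high. All Mitsui low animals lay above the controls, and 1 Mitsui high animal lay among them. Its log2 changes were 0.35, 0.31, 0.65 and 0.47 (SE 0.12), called in both Mitsui groups (limma adjusted p = 0.000585 and 0.00778) and not in the NM-401 groups (0.0589 and 0.0573). Idi1, the isopentenyl diphosphate isomerase, had the same calls. Idi1 ranged over -0.06 to 0.53 in the controls, 0.14 to 0.89 and 0.16 to 1.00 in the NM-401 low and high groups, and 0.58 to 1.40 and 0.28 to 1.05 in the Mitsui low and high groups. Its log2 changes were 0.20, 0.27, 0.71 and 0.60 (SE 0.17), with adjusted p = 0.00468 in Mitsui low and 0.0137 in Mitsui high. The difference between the materials was tested directly and was called for neither gene. For Hmgcs1 the difference NM-401 minus Mitsui was -0.31 (95% interval -0.56 to -0.05, adjusted p = 0.807) at the low dose and -0.16 (-0.42 to 0.10, adjusted p = 0.558) at the high dose. For Idi1 it was -0.51 (-0.87 to -0.15, adjusted p = 0.664) and -0.33 (-0.69 to 0.03, adjusted p = 0.341).

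Fdps, which joins isoprenoid units into farnesyl diphosphate, rose in 3 exposures. Fdps ranged over -1.05 to -0.51 in the controls, -0.66 to -0.32 and -0.48 to 0.17 in the NM-401 low and high groups, and -0.32 to 0.23 and -0.48 to 0.00 in the Mitsui low and high groups. The exposed and control animals did not overlap in those 3, and in NM-401 low they did. The log2 changes were 0.20, 0.44, 0.55 and 0.52 (SE 0.13) with adjusted p = 0.316, 0.0095, 0.00323 and 0.00439. Control animal 2 was low for Fdps, at -1.05 against -0.63 to -0.51 in the other controls. That animal comes up again with the fatty acid genes: without it and NM-401 high animal 2, Fdps was no longer called in NM-401 high (log2 change 0.24, adjusted p = 0.119). Pmvk, the phosphomevalonate kinase, rose in NM-401 high (0.39, adjusted p = 0.003) and Mitsui low (0.31, adjusted p = 0.0253), the latter call lost without the same 2 animals (adjusted p = 0.067). Mvk and Acat2, the mevalonate kinase and a thiolase that starts the pathway, were called in no exposure, with log2 changes of -0.07, 0.13, 0.24 and 0.26 for Mvk and 0.14, 0.04, 0.21 and 0.08 for Acat2.

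From squalene to cholesterol, 4, 8, 7 and 7 of the 11 enzymes rose, beside the same shares of all features. Fdft1, Sqle, Cyp51 and Tm7sf2 rose in all 4 exposures, and Lss, Msmo1 and Dhcr7 in 3. Sqle, squalene epoxidase and a rate-controlling enzyme of the pathway, rose most of the 34 genes in NM-401 low. Sqle read -1.44, -1.90, -1.12, -1.11 and -1.20 in the 5 controls, -0.78, -0.37, -0.85, -0.92 and -0.76 in the NM-401 low group and -0.49, -0.25, -0.97, -0.87 and -0.86 in the NM-401 high group. At the low dose of Mitsui the values were -0.62, -0.48, -0.18, -0.54 and -0.28, and at the high dose -0.49, -0.51, -1.05, -0.57 and -0.38. Every exposed animal lay above the highest control. Sqle changed on the log2 scale by 0.62, 0.66, 0.93 and 0.75 (SE 0.16), up to 1.91-fold (1.52 to 2.39), with limma adjusted p = 0.00907, 0.00194, 0.000187 and 0.00119. Without control animal 2, the lowest control, and NM-401 high animal 2, both described with the fatty acid genes, the change in NM-401 high was 0.42 (adjusted p = 0.0272), still called.

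Fdft1, squalene synthase, draws isoprenoids into the sterol branch. Fdft1 read -0.64, -0.97, -0.64, -0.83 and -0.60 in the 5 controls, -0.46, -0.17, -0.34, -0.44 and -0.25 in the NM-401 low group and -0.13, 0.04, -0.42, -0.43 and -0.12 in the NM-401 high group. The values were -0.22, -0.07, 0.00, -0.19 and 0.31 in Mitsui low and -0.17, -0.28, -0.38, -0.18 and 0.06 in Mitsui high. Here too no exposed animal overlapped the controls in any group. Against control these amount to log2 changes of 0.41, 0.52, 0.70 and 0.55 (SE 0.11), with adjusted p = 0.0117, 0.000506, 6.66e-05 and 0.000679. A second Fdft1 probe passed the filter but was dim, well above background in 1 of the 5 controls. It gave smaller log2 changes of 0.21, 0.24, 0.31 and 0.12.

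Tm7sf2, a sterol reductase that acts after Cyp51, was higher in all 4 groups. Tm7sf2 read -0.20, -0.32, 0.07, -0.16 and 0.08 in the 5 controls, 0.35, 0.40, 0.44, 0.71 and 0.05 in the NM-401 low group and 0.74, 0.93, 0.13, 0.70 and 0.86 in the NM-401 high group. Mitsui low animals read 0.47, 0.44, 0.80, 0.33 and 1.17 and Mitsui high animals 0.56, 0.73, 0.55, 0.90 and 0.57. The groups did not overlap except in NM-401 low, where animal 5 lay just under the highest control. Its log2 changes were 0.50, 0.78, 0.75 and 0.77 (SE 0.15) with adjusted p = 0.026, 0.000292, 0.00103 and 0.000719, and its second probe gave 0.31, 0.59, 0.55 and 0.65. Cyp51, lanosterol demethylase, had log2 changes of 0.29, 0.49, 0.64 and 0.38 (SE 0.10) with adjusted p = 0.042, 0.000342, 5.39e-05 and 0.00547. Cyp51 ranged over -1.54 to -1.09 in the controls, -1.22 to -0.88 and -0.97 to -0.68 in the NM-401 low and high groups, and -0.79 to -0.43 and -1.10 to -0.69 in the Mitsui low and high groups. The NM-401 low calls were the least settled: leaving out 1 animal in turn ended the Cyp51 call for 3 of the controls and 3 of the NM-401 low animals, and the Tm7sf2 call for 3 controls and 2 NM-401 low animals.

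Dhcr7, a reductase of the last steps, rose in NM-401 high and both Mitsui groups. Dhcr7 read -1.04, -0.75, -0.44, -1.02 and -0.66 in the 5 controls, -0.40, -0.13, -0.54, -0.52 and -0.37 in the NM-401 low group and 0.36, -0.13, -0.35, -0.42 and 0.00 in the NM-401 high group. At the low dose of Mitsui the values were -0.37, 0.11, -0.16, -0.17 and 0.37, and at the high dose -0.02, -0.08, 0.12, 0.08 and 0.05. In those 3 groups every animal lay above the highest control, while NM-401 low overlapped it. The log2 changes were 0.39, 0.68, 0.74 and 0.81 (SE 0.14) with adjusted p = 0.0601, 0.000582, 0.00059 and 0.000203. Its call in NM-401 high held under every one of the 40 alternatives run, median centring included.

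Lss, which closes squalene epoxide into lanosterol, had log2 changes of 0.23, 0.48, 0.63 and 0.46 (SE 0.13) with adjusted p = 0.267, 0.00646, 0.00144 and 0.0139. Lss ranged over -1.33 to -0.87 in the controls, -1.05 to -0.72 and -0.86 to -0.22 in the NM-401 low and high groups, and -0.73 to -0.08 and -0.98 to -0.40 in the Mitsui low and high groups. Msmo1 starts removal of the methyl groups that remain after Cyp51 has acted. Its log2 changes were 0.34, 0.43, 0.70 and 0.47 (SE 0.13) with limma adjusted p = 0.0739, 0.0134, 0.000458 and 0.0104. Msmo1 ranged over -0.90 to -0.14 in the controls, -0.22 to 0.25 and -0.32 to 0.20 in the NM-401 low and high groups, and 0.14 to 0.41 and -0.35 to 0.22 in the Mitsui low and high groups. Its NM-401 high call ended without control animal 2 (log2 change 0.26 and adjusted p = 0.133 without that animal and NM-401 high animal 2). Of the enzymes that follow Msmo1, Nsdhl rose in NM-401 high (0.37, limma adjusted p = 0.05 as rounded, so just at the threshold). The call was lost without the same 2 animals (adjusted p = 0.263). Hsd17b7, Ebp and Sc5d were called nowhere. Hsd17b7 had log2 changes of 0.16, 0.29, 0.28 and 0.31 (SE 0.13), and Sc5d, whose animals were spread widely within groups, -0.35, -0.24, 0.16 and 0.03 (SE 0.28).

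**Figure D2:**
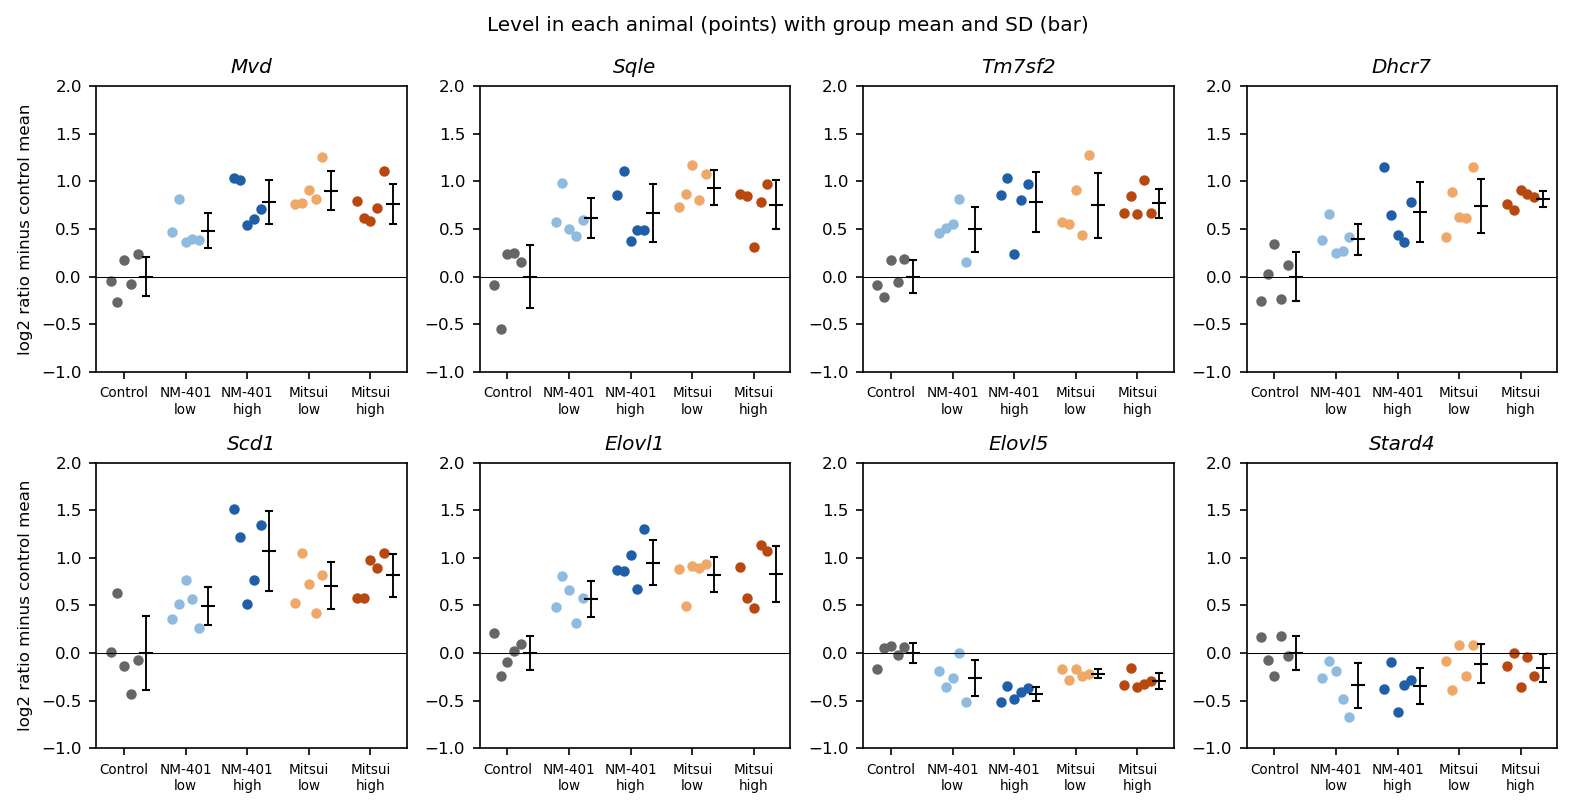
Log2 ratio of 8 genes in each animal minus the control mean (points, 5 per group), with the group mean and SD (bar with whiskers). Mvd, Sqle and Elovl1 of every exposed animal lie above all controls, Elovl5 lies lower in most exposed animals, and 1 control (animal 2) is high for Scd1.

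Of the 4 regulators and transport genes, Srebf2 rose in NM-401 high and Mitsui low. Srebf2 ranged over -1.13 to -0.76 in the controls, -0.81 to -0.38 and -0.81 to -0.54 in the NM-401 low and high groups, and -0.83 to -0.37 and -0.99 to -0.27 in the Mitsui low and high groups. The groups overlapped in every exposure, and the log2 changes were 0.29, 0.33, 0.39 and 0.32 (SE 0.12) with adjusted p = 0.119, 0.0435, 0.0256 and 0.0654. Both calls ended when any of several single animals was left out, control animal 2 among them. A second Srebf2 probe gave larger changes, 0.48, 1.06, 0.70 and 0.67. Srebf1 was called in no exposure, with log2 changes of -0.02, 0.05, 0.06 and -0.20 (SE 0.08). Insig1, itself an SREBP target, rose in Mitsui low (0.45, adjusted p = 0.000986) and had 0.09, 0.14 and 0.21 in the others.

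Stard4, a carrier of sterols between membranes, went the other way from the enzymes in the NM-401 groups by its brighter probe. Stard4 read 0.64, 0.40, 0.23, 0.65 and 0.45 in the 5 controls, 0.22, 0.39, 0.28, -0.01 and -0.20 in the NM-401 low group and 0.09, 0.38, -0.15, 0.14 and 0.19 in the NM-401 high group. The values were 0.39, 0.09, 0.56, 0.24 and 0.56 in Mitsui low and 0.34, 0.47, 0.12, 0.44 and 0.24 in Mitsui high. The NM-401 animals overlapped the controls. Its log2 changes came to -0.34, -0.34, -0.11 and -0.15 (SE 0.12) with adjusted p = 0.049, 0.0259, 0.57 and 0.382. The NM-401 low call ended under 23 of 40 alternatives, including when single animals of groups outside the comparison were left out, and the NM-401 high call under 5 of 40. Without control animal 2 and NM-401 high animal 2 the change in NM-401 high was -0.42 (adjusted p = 0.0154). A second Stard4 probe passed the filter but was dim, well above background in 3 of the 5 controls. It did not repeat the fall, with log2 changes of 0.14, -0.01, 0.04 and -0.02. Averaging the kept probes of each gene ended both NM-401 calls.

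Fatty acid synthesis was read against markers of fat cells, since 2 lungs stood apart in them. Of 11 adipocyte markers listed, Lep and Ucp1 did not pass the filter on dim probes. Over the 9 that did, such as Adipoq and Plin1, control animal 2 lay 2.31 and NM-401 high animal 2 lay 1.44 above the control mean on the log2 scale. The other 4 controls lay between -0.93 and 0.11, and the other animals of the exposed groups between -1.52 and -0.54. Control animal 2 was also the highest control for Fasn, Acaca, Acly, Acss2, Me1, Elovl6 and Scd1. Values are therefore given with all animals and without these 2, an alternative chosen after the data were seen. Leaving out the highest control lowers the control mean of those genes, so higher changes without it follow in part from that choice. The part of fat tissue in these levels was not tested further.

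For Fasn, fatty acid synthase, control animal 2 stood apart from the other controls. Fasn read 1.87, 3.08, 1.60, 1.72 and 1.63 in the 5 controls, 2.14, 2.48, 2.25, 1.99 and 2.06 in the NM-401 low group and 2.91, 2.89, 2.40, 2.55 and 2.72 in the NM-401 high group. Mitsui low animals read 2.39, 2.18, 2.53, 2.36 and 2.38 and Mitsui high animals 2.46, 2.26, 1.99, 2.62 and 2.71. The exposed animals all lay above 4 of the controls and below control animal 2. With all animals the log2 changes were 0.20, 0.71, 0.39 and 0.43 (SE 0.20), with adjusted p = 0.553, 0.00733, 0.184 and 0.129, called in NM-401 high alone. Without the 2 animals they were 0.48, 0.94, 0.66 and 0.70, and Fasn was called higher in all 4 (adjusted p = 0.015, 1.66e-05, 0.000995 and 0.000504).

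Elovl6, which lengthens palmitate, read -1.43, 1.67, -2.05, -2.01 and -1.92 in the controls and -2.05 to -1.27, -1.85 to -1.20, -2.02 to -1.62 and -2.15 to -1.40 in the exposed groups. Control animal 2 alone was above 0. The log2 changes of -0.62, -0.52, -0.64 and -0.67 (SE 0.44, not called) became 0.08, 0.06, 0.06 and 0.03 without the 2 animals. Me1, which supplies NADPH, had 0.03, 0.30, 0.23 and 0.17 with all animals, not called, and 0.29, 0.51, 0.49 and 0.43 without them, called higher in NM-401 high and both Mitsui groups (adjusted p = 0.00962, 0.0145 and 0.0271). Acly, ATP citrate lyase, had -0.11, 0.10, 0.12 and -0.06 with all animals and 0.09, 0.26, 0.32 and 0.14 without them, called in NM-401 high and Mitsui low (adjusted p = 0.0358 and 0.014). Acaca was called higher without the 2 animals in NM-401 high alone (0.31, adjusted p = 0.0362).

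Acss2, which makes acetyl-CoA from acetate, was the member of this group that fell. It read 0.58, 1.50, 0.75, 0.98 and 0.81 in the controls and 0.43, 1.05, -0.22, 0.19 and -0.06 in NM-401 high. NM-401 high animal 2 lay above the control mean and the other 4 below every control. The log2 changes were -0.42, -0.65, -0.54 and -0.45 (SE 0.20), called in NM-401 high (adjusted p = 0.0137), and the call held without the 2 animals (-0.70, adjusted p = 0.00251).

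**Figure D3:**
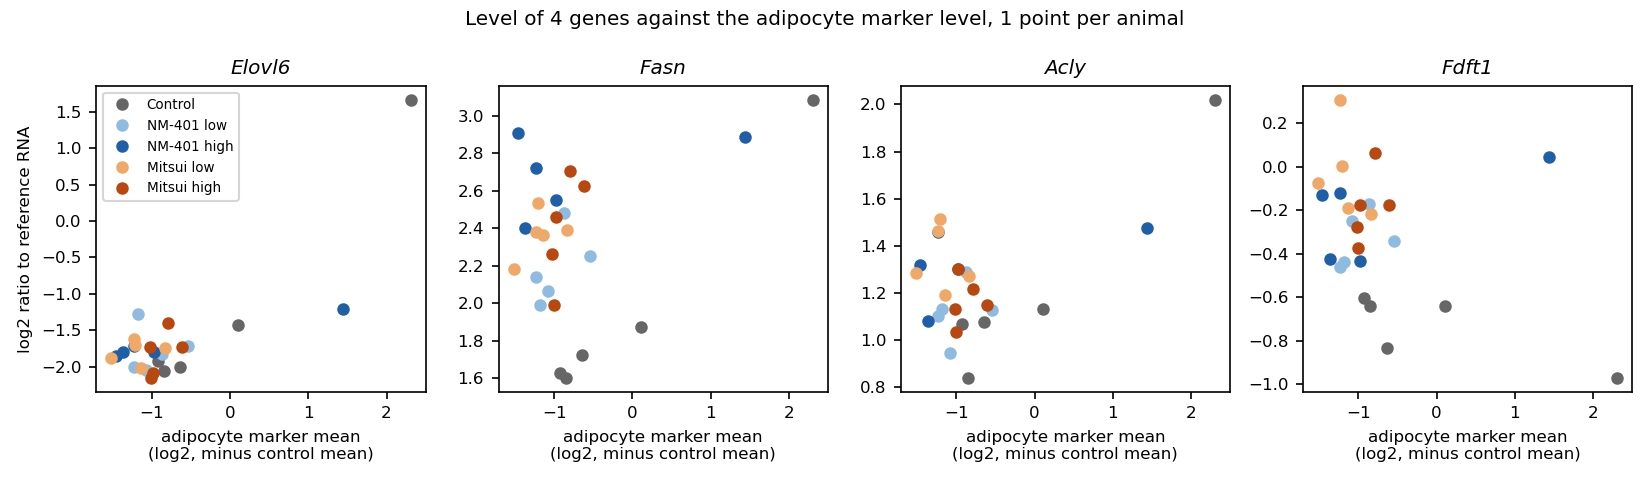
Log2 ratio to reference RNA of Elovl6, Fasn, Acly and Fdft1 (vertical) against the mean log2 level of 9 adipocyte markers minus the control mean (horizontal), 1 point per animal. Control animal 2, at 2.31, is the highest point for Elovl6, Fasn and Acly and the lowest for Fdft1, and NM-401 high animal 2 is at 1.44.

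Over all 34 genes, without those 2 animals, 6 rose and 2 fell in NM-401 low (15.6% of all features called), 14 and 4 in NM-401 high (31.6%), 18 and 0 in Mitsui low (19.2%), and 15 and 1 in Mitsui high (22.2%). Besides the fatty acid genes, Acat2 was then called higher in Mitsui low. Calls that ended and are not given above were those of Srebf2 in both groups, Cyp51, Tm7sf2 and Stard4 in NM-401 low, Fads2 in NM-401 high and Elovl5 in Mitsui low.

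Scd1, stearoyl-CoA desaturase, which makes oleate, had the largest rise of the 34 genes in NM-401 high. Scd1 read 3.29, 3.91, 3.15, 2.85 and 3.21 in the 5 controls, 3.64, 3.80, 4.04, 3.84 and 3.54 in the NM-401 low group and 4.79, 4.50, 3.79, 4.04 and 4.62 in the NM-401 high group. At the low dose of Mitsui the values were 3.81, 4.33, 4.00, 3.69 and 4.10, and at the high dose 3.86, 3.86, 4.26, 4.18 and 4.33. Control animal 2, at 3.91, lay within every exposed group, and the other 4 controls lay below all exposed animals. The log2 changes were 0.49, 1.07, 0.71 and 0.82 (SE 0.18), 2.10-fold (95% interval 1.62 to 2.73) in NM-401 high, with adjusted p = 0.0655, 6.44e-05, 0.00695 and 0.00198. Without the 2 animals all 4 were called (log2 changes 0.65, 1.19, 0.86 and 0.97, adjusted p = 0.0138, 3.09e-05, 0.00128 and 0.000387). The NM-401 high call held under all 40 alternatives. Its sister desaturase Scd2 was lower in the NM-401 groups, with log2 changes of -0.34, -0.37, -0.15 and -0.25 (SE 0.12) and adjusted p = 0.0459, 0.0162, 0.397 and 0.132. Scd2 ranged over 0.17 to 0.60 in the controls, -0.16 to 0.32 and -0.53 to 0.36 in the NM-401 low and high groups, and 0.12 to 0.25 and -0.03 to 0.22 in the Mitsui low and high groups. The NM-401 groups overlapped the controls, and the NM-401 low call ended under 22 of 40 alternatives.

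Elovl1, which builds very long saturated chains, rose in all 4 exposures. Elovl1 read 2.81, 2.36, 2.51, 2.62 and 2.70 in the 5 controls, 3.08, 3.41, 3.26, 2.91 and 3.18 in the NM-401 low group and 3.48, 3.46, 3.63, 3.28 and 3.90 in the NM-401 high group. The values were 3.48, 3.09, 3.51, 3.49 and 3.54 in Mitsui low and 3.50, 3.17, 3.08, 3.74 and 3.67 in Mitsui high. No exposed animal overlapped the controls. This gives log2 changes of 0.57, 0.95, 0.82 and 0.83 (SE 0.13), from 1.48-fold (1.23 to 1.79) to 1.93-fold (1.60 to 2.33), with adjusted p = 0.00453, 5.54e-06, 0.000108 and 8.25e-05. A second probe gave 0.60, 1.14, 0.87 and 0.91.

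Elovl5, which lengthens polyunsaturated chains, fell in all 4. Elovl5 read 1.68, 1.91, 1.93, 1.84 and 1.92 in the 5 controls, 1.66, 1.50, 1.60, 1.86 and 1.34 in the NM-401 low group and 1.34, 1.51, 1.37, 1.45 and 1.48 in the NM-401 high group. Mitsui low animals read 1.68, 1.58, 1.69, 1.62 and 1.63 and Mitsui high animals 1.52, 1.70, 1.49, 1.53 and 1.57. The NM-401 high animals all lay below the lowest control, and the other groups overlapped it. Relative to control the log2 changes came to -0.26, -0.43, -0.22 and -0.29 (SE 0.07) with adjusted p = 0.0156, 7.85e-05, 0.0399 and 0.00503, a level of 0.74 times control in NM-401 high. The Mitsui low call ended under 13 of 40 alternatives. Of the delta desaturases of polyunsaturated chains, Fads2 rose in NM-401 high (0.28, adjusted p = 0.0319) and Fads1 was not called, with log2 changes of 0.11, 0.23, 0.26 and 0.24.

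Between doses and between materials, Pmvk gave the single call among the 34 genes. From NM-401 low to NM-401 high 1 of 34 genes was called, beside 3.84% of all features (2.69% higher, 1.15% lower): Pmvk rose by 0.43 (SE 0.10, 95% interval 0.22 to 0.63, adjusted p = 0.0189). Pmvk read -0.12, 0.32, -0.03, 0.05 and 0.03 in NM-401 low and 0.44, 0.38, 0.69, 0.48 and 0.40 in NM-401 high, groups that do not overlap. The call ended when NM-401 low animal 1 or 4 or NM-401 high animal 3 was left out. Larger steps that were not called were those of Scd1 (0.58, 95% interval 0.20 to 0.95, adjusted p = 0.0763) and Fasn (0.51, 0.10 to 0.92, adjusted p = 0.161). Without control animal 2 and NM-401 high animal 2, Fasn was called also (0.46, adjusted p = 0.0407), beside 5.37% of all features.

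From Mitsui low to Mitsui high 0 of 34 genes and 0% of all features were called by limma, although 1243 of 22950 features had an unadjusted p under 0.05. The median change of the 34 genes was -0.07. Between the materials, 0 of 34 genes were called at the low dose (0% of all features; 1287 had an unadjusted p under 0.05) and 0 at the high dose (0.793% of all features). The median difference NM-401 minus Mitsui was -0.24 at the low dose and -0.02 at the high dose. Of the 18 sterol enzymes, 0 had a positive difference at the low dose (median -0.34) and 6 at the high dose (median -0.04). The dose step of NM-401 minus that of Mitsui was positive for 18 of 18 (median 0.25). Enzymes read in the same animals are not independent of each other. The difference of the dose steps was called for 0 of 34 genes (0.0305% of all features, 0.0218% higher and 0.00871% lower), the nearest named gene being Pmvk (0.56, 95% interval 0.27 to 0.85, adjusted p = 0.0989). These intervals leave room for differences of moderate size: for Mvd, for example, NM-401 minus Mitsui at the low dose was -0.42 (95% interval -0.68 to -0.16, adjusted p = 0.49).

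Averaged over the 18 sterol enzymes, each animal's level minus the control mean was -0.19 to 0.16 in the controls, 0.12 to 0.40 in NM-401 low, 0.20 to 0.63 in NM-401 high, 0.40 to 0.81 in Mitsui low and 0.21 to 0.62 in Mitsui high. Exposed animals lay above all controls apart from those of NM-401 low, whose lower animals overlapped them. Over the 5 fatty acid synthesis genes the ranges were -0.30 to 0.95, -0.29 to 0.11, -0.22 to 0.42, -0.09 to 0.18 and -0.11 to 0.13, and overlapped throughout. Slides were checked within: of the genes called, all kept their sign on every slide that held both groups, except 1 of 9 on 2 slides for NM-401 low and 1 of 17 on 1 slide for Mitsui low. Slide 1 held 2 controls and each other slide 1, which on slide 2 was control animal 2. The genes were called from these same animals, so the signs are a description and not an independent check.

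Cell type markers moved with the same groups. The counts that follow stand beside 16.9%, 34.8%, 21% and 23.7% of all features called in either direction in the 4 exposures, and 8.95%, 18.4%, 10.6% and 12.7% called higher. Of 11 alveolar type 2 markers, all found in every animal, 4, 6, 9 and 6 were higher and none lower, with the list mean at -0.17 to 0.10 in controls and 0.13 to 0.39, 0.15 to 0.51, 0.38 to 0.50 and 0.27 to 0.35 in the exposed groups. Of 13 macrophage markers measured, 8, 9, 8 and 7 were higher and 0, 1, 1 and 1 lower, with the list mean at -0.11 to 0.08 in controls and 0.49 to 1.00, 0.64 to 1.20, 0.80 to 0.97 and 0.62 to 0.92. Of 7 alveolar type 1 markers 3, 5, 4 and 4 were lower and 0, 1, 0 and 0 higher. Of 8 endothelial markers 3, 5, 2 and 4 were lower and none higher, and of 9 fibroblast markers 5, 5, 5 and 4 were lower and 0, 2, 0 and 2 higher. These 3 lists had negative medians in all 4 exposures. The signs of all 5 list medians held under each of the 4 other scalings tried. Of 7 airway epithelial markers 2, 2, 3 and 4 were higher and 0, 2, 0 and 1 lower, and of 9 lymphocyte markers 1 was higher, in NM-401 high. Their part in the changes of the synthesis genes was not tested. Hepatocyte and cardiac muscle markers, from tissues near the lung, varied widely within groups, with 1 gene of each lower in NM-401 high against control and none called in the other 3 exposures.

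**Figure D4:**
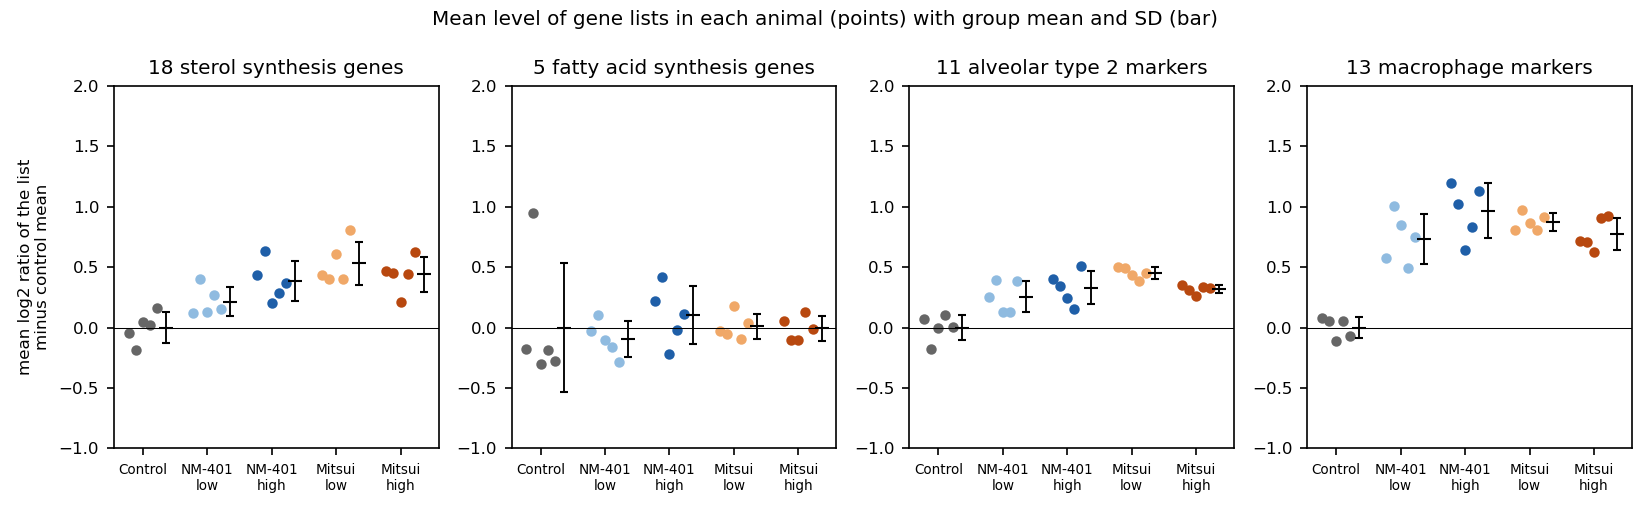
Mean log2 level of 4 gene lists in each animal minus the control mean (points, 5 per group), with group mean and SD (bar with whiskers). Sterol enzymes, alveolar type 2 markers and macrophage markers lie higher in exposed animals, though for sterol enzymes the NM-401 low group overlaps the controls. The fatty acid synthesis genes overlap in all groups, with control animal 2 highest.

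Other genes of the same pathways moved less evenly. Of 18 further sterol synthesis and SREBP control genes, 2, 4, 8 and 7 rose and 2, 4, 2 and 3 fell, beside 16.9%, 34.8%, 21% and 23.7% of all features called in either direction. The list medians were 0.02, 0.06, 0.11 and 0.13, 3 of which (all but NM-401 high) turned negative under median centring. Soat1, which esterifies cholesterol for storage, rose in all 4, with log2 changes of 0.67, 0.94, 0.77 and 0.70 (adjusted p = 0.00236, 1.65e-05, 0.000448 and 0.000919). Nus1, a subunit of the enzyme that makes dolichol precursors from isoprenoids, did so too, with 0.47, 0.87, 0.66 and 0.61. Lbr, a sterol reductase that does the same reaction as Tm7sf2, fell in all 4, with log2 changes of -0.28, -0.48, -0.36 and -0.36 (adjusted p = 0.011, 1.73e-05, 0.00105 and 0.00102).

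Of 27 other fatty acid synthesis and activation genes measured, 2, 7, 5 and 4 rose and 0 fell in the 4 exposures, beside the same shares in either direction and 8.95%, 18.4%, 10.6% and 12.7% called higher. Each of the 4 counts is a smaller share of its list than the share of all features called in either direction. Set beside the share called higher, the list's share was smaller in NM-401 low and larger in the other exposures. Acsl4, which activates polyunsaturated fatty acids, rose in all 4 (0.61, 0.74, 0.72 and 0.62, adjusted p = 0.00156, 5.18e-05, 0.000214 and 0.000778). Of 13 genes of liver X receptors and cholesterol handling, 6, 8, 6 and 7 rose and 1, 0, 1 and 0 fell, beside those shares. Ch25h, which makes an oxysterol, rose most, by 1.93, 2.43, 2.39 and 2.32 (SE 0.20, adjusted p = 7.83e-07, 3.8e-09, 1.92e-08 and 2.99e-08). Lipa and Npc2, which free and export cholesterol in lysosomes, changed by 0.86, 1.36, 1.00 and 0.95 and 0.78, 1.35, 0.97 and 0.86, and Plin2, a coat protein of lipid droplets, by 1.04, 1.77, 1.22 and 1.30. These lists, like the 34 genes, were chosen with earlier results of the same data known, so their counts are a description.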

How the data were processed

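Lung RNA of 25 animals was measured on 26 2-colour Agilent arrays on 4 slides, 5 animals in each of 5 groups. The 2 arrays of Mitsui low animal 5 (r = 0.967) were averaged. The 34 genes and all other lists were chosen with earlier results of these data known.

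The deposited scanner files give the median intensity of each spot and of its background, not subtracted from each other, per the file headers. Their log10 ratios of Cy5 over Cy3 are Feature Extraction 11.0.1.1 output, background-subtracted and dye-normalised, per the file headers. Other deposited columns are flags of 0 or 1 for outlier spots and for spots well above background. The authors deposited a matrix of log2 ratios whose scaling is not given in the sources used here. Its columns correlated with the scanner log ratios at r = 0.875 to 0.909, so they run in the same direction, and their medians lay between -0.04 and -0.0181. RNA input was 200 ng per array, per the labels' protocols.

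From the median signals, background was corrected by normexp (offset 50) and ratios normalised within arrays by loess (R 4.3.3, limma 3.58.1). Outlier spots (0.461%) were left out. Cy5 was well above background for 45.8% to 62.1% of 55681 probes, and the number of animals limits the precision. Symbols came through RefSeq accessions for 27235 probes, and 28446 have none here. Probes well above background in 4 or more animals of any group were kept (30466), giving 22950 features, 14838 of them named. A gene is read by its kept probe of highest mean intensity. One limma model over 5 groups (20 residual degrees of freedom, empirical Bayes) gave 9 comparisons, two-sided, with p-values adjusted by Benjamini-Hochberg over all features and called under 0.05. The code was tested on simulated data.

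Genes called in at least 2 exposures or in another comparison are described in full. The others are given by counts, with values for examples, and of other lists up to 4 genes with the smallest p in NM-401 high are named. Alternatives covered background correction, scaling, probe filter and choice, slide, replicate block, variance model, array weights, the samples fitted and leaving out each animal.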

Additional observations from a re-analysis of the deposited data

Results flagged for a closer look

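Within each group of 5, an animal was picked out when its distance to the nearest other animal was a large share of the group's whole range (Dixon's criterion at 95%). Of 170 gene and group pairs, 19 were picked out, and chance gives about 1 in 20. Control animal 2 accounts for 7. It was highest for Fasn (share of the range 0.817), Acaca (0.776), Acly (0.753), Elovl6 (0.831, at 1.67 against -1.43 for the next control) and Me1 (0.849), and lowest for Fdps (0.784) and Fads1 (0.719). NM-401 high animal 2, the other animal with high adipocyte markers, was highest for Elovl6 (0.788) and Ebp (0.845).

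Mitsui low animal 5, the animal hybridised on 2 arrays, was highest for Pmvk (0.722), Cyp51 (0.837) and Hsd17b7 (0.774). Mitsui high animal 3 was lowest for Idi1 (0.869), Fdps (0.722) and Sqle (0.724). NM-401 low animal 2 was highest for Mvd (0.752) and Msmo1 (0.853). NM-401 high animal 3 was lowest for Tm7sf2 (0.711), and Mitsui low animal 2 was lowest for Elovl1 (0.869).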

How the results depend on the processing

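Alternatives were run on 9 counts of called genes and on 56 gene and comparison pairs, and none of the 56 changed sign under any of the 40 alternatives. Median centring in place of loess changed most: it called 0, 2, 0 and 0 of the 34 genes in the 4 exposures (NM-401 low and high, Mitsui low and high), and 0 from NM-401 low to high, with 2 of 56 pairs kept. Over all 22950 features it called 62, 1064, 74 and 121 in the exposures and 8 from NM-401 low to high. The cause was not tested. With slide as a block, 2 genes were called from NM-401 low to high. Array weights called 1 gene in the difference of the dose steps. Fitting only the groups compared called 5 genes in NM-401 low and 0 from NM-401 low to high, on fewer samples. Without control animal 2 and NM-401 high animal 2, 2 were called from NM-401 low to high, beside 5.37% of all features. With the replicate number as a block, which pairs animals of equal number, 8, 20, 17, 14 and 1 genes were called, and 0 in the other 4 comparisons. Animals of equal number did not deviate together (median correlation -0.003, and 5 of 25 animals correlated best with their own number), so the numbers are taken as names. Leaving out 1 animal gave 5 to 10 calls in NM-401 low, 16 to 22 in NM-401 high, 14 to 18 in Mitsui low, 14 to 16 in Mitsui high, 0 to 3 from NM-401 low to high, 0 to 1 in the dose step difference, and 0 in the remaining 3. For the blocks, array weights, fits of only the groups compared and fits leaving out 1 animal, the share of all features called is not given here. A moved count there cannot be told from a change in calls over all features. Quantile scaling of intensities after loess leaves ratios as they are, so its counts equal the reported ones.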
